A study of Mus musculus with 3 samples.

Results

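The platelet-derived growth factor (PDGF) family was followed here through its 4 ligand genes, Pdgfa, Pdgfb, Pdgfc and Pdgfd, and its 2 receptor genes, Pdgfra and Pdgfrb. These 6 genes were taken by symbol from the 31053 genes of the single-cell count files. The family was chosen with earlier results of these data known. All 6 had UMIs (unique molecular identifiers, each marking 1 captured RNA molecule) in every library. The cells came from Matrigel masses removed on day 5 after subcutaneous implantation in CD-1 female mice aged 6 to 8 weeks, a model of heterotopic ossification, the formation of bone outside the skeleton. In the Vehicle and Palo groups the Matrigel carried recombinant human BMP2, a protein that starts ectopic cartilage and bone formation. Vehicle mice were given corn oil with DMSO by mouth and Palo mice palovarotene, a retinoic acid receptor gamma agonist, at 4 mg/kg daily. Matrigel-only mice had neither BMP2 in the implant nor any oral treatment, so the step from Matrigel-only to Vehicle joins BMP2 with gavage. Each of the 3 groups is a single library (1 per group). Several ectopic masses were taken per group, but the cells are not labelled by mass or mouse. Without replicate libraries, no p-value is given, a difference between groups cannot be told apart from a difference between libraries, and every interval below is a 95% interval for counting error only.

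PDGF ligands are secreted as disulphide-linked dimers that bind and cross-link the receptor tyrosine kinases PDGFRα and PDGFRβ. The A and B chains are active once secreted and cut inside the cell, whereas the C and D chains carry a CUB domain that an extracellular protease has to remove. PDGFRα binds A, B and C chains, and PDGFRβ binds mainly B and D chains. In connective tissue the receptors are known from fibroblasts, mesenchymal progenitors and the mural cells of vessels, where they drive migration and division, while macrophages, platelets and endothelial cells are known sources of the B chain. In these masses the question was therefore which cells carried the ligand transcripts, which carried the receptor transcripts, and how both differed between the 3 libraries.

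Promoter sequences are shown for Pdgfa, Pdgfd and Pdgfra, because these are the genes whose levels were more than 2-fold apart between libraries in stromal cells. Pdgfa lies on the minus strand at chr5:138976014-138997370 of mm10, Pdgfd on the plus strand at chr9:6168584-6378850 and Pdgfra on the plus strand at chr5:75152292-75198215. Each sequence runs from 250 bases before a RefSeq transcription start to 50 bases from it, on build GRCm38.p6, in the gene's own direction. The windows are chr5:138994895-138995194 for Pdgfa (the more upstream of 2 RefSeq starts), chr9:6168236-6168535 for Pdgfd and chr5:75152001-75152300 for Pdgfra. Capitals mark the motifs found by a search of both strands.

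Pdgfa: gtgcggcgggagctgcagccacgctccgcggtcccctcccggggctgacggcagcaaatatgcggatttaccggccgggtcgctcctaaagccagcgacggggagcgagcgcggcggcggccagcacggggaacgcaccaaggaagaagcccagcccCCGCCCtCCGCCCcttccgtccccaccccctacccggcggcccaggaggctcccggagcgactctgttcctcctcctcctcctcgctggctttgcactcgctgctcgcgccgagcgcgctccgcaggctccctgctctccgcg
Pdgfd: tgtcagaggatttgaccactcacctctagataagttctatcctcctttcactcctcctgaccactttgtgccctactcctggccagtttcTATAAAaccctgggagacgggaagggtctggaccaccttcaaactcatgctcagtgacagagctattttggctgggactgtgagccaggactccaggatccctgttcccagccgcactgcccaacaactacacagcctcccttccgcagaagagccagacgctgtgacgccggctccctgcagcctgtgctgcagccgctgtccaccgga
Pdgfra: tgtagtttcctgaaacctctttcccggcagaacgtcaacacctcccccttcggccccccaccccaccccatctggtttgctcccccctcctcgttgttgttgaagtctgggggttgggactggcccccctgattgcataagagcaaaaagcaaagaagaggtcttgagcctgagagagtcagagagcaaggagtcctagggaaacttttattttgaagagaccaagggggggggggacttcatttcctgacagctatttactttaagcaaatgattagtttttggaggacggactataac

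The search covered the retinoid receptor core AGGTCA, present in 16.3% of all 32851 RefSeq promoters of this length, the GC-rich SMAD motif GGCGCC (11.9%), the Sp1 motif GGGCGG (35.7%), the TATA box TATAAA (13.6%) and the SOX core ACAATG (12.6%). The Pdgfa window held the Sp1 motif on its reverse strand at positions -93 and -86 and had 73.3% G and C, against a median of 52.7% over all promoters. The Pdgfd window held the TATA box at position -160 with 56.7% G and C. None of the 5 motifs was in the Pdgfra window, which had 51% G and C. The Pdgfc promoter, from chr3:81036166-81036465 on the plus strand, held the SMAD motif at position 1, and the second Pdgfa window, chr5:138994232-138994531, held the Sp1 motif at -60 and the SOX core at -133. AGGTCA was in none of these 5 windows. A match is a description of letters and not a binding site.

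Of the 9249, 6065 and 7905 deposited barcodes of the Matrigel-only, Vehicle and Palo libraries, 8728, 5478 and 7297 passed the study's filter of 200 to 6000 genes and at most 5% mitochondrial UMIs. Stromal cells were those in which Col1a1, Col1a2, Col3a1, Dcn and Lum together made up at least 1% of UMIs. Macrophages were those below 1% with a UMI of Csf1r or C1qa. This gave 2085, 1373 and 1184 stromal cells (23.9%, 25.1% and 16.2% of cells) and 5812, 3253 and 5661 macrophages (66.6%, 59.4% and 77.6%). A list of 10 further stromal markers summed to between 15199 and 22111 CPM (UMIs of a gene per 1000000 UMIs of the class) in stromal cells and to between 121 and 223 CPM in macrophages. A list of 10 macrophage markers summed to between 21103 and 25133 CPM in macrophages and to between 387 and 887 CPM in stromal cells. A UMI of Csf1r, C1qa or Ptprc was present in 25.3%, 29.7% and 30.8% of stromal cells. Median depth was 9082, 17114 and 12955 UMIs in stromal cells and 3090.5, 3646 and 4254 UMIs in macrophages, and 16, 17 and 8 cell barcodes were shared between the pairs of libraries. Because depth differed, shares of cells with a UMI are given after thinning every stromal cell to 3100 UMIs and every macrophage to 1400 UMIs, which left out 54 to 207 stromal cells and 137 to 567 macrophages a library.

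Ligand and receptor transcripts were divided between the 2 cell classes. Stromal cells held 98.9%, 98.2% and 98.8% of the Pdgfra UMIs of the Matrigel-only, Vehicle and Palo libraries, 96.8%, 96.3% and 95.7% of the Pdgfrb UMIs, and 99.0%, 95.1% and 99.1% of the Pdgfd UMIs. Macrophages held 90.6%, 81.4% and 95.6% of the Pdgfb UMIs. The transcripts of Pdgfa and Pdgfc came from both classes. Stromal cells gave 68.1% and 73.7% of Pdgfa UMIs in Matrigel-only and Vehicle but 46.9% in Palo, where macrophages gave 50.8%. For Pdgfc the stromal part was 53.5%, 76.1% and 55.7% in the same order of libraries. These parts depend on how many cells of each class were captured as well as on the level per cell, and in such sums fewer cells of a type and less RNA per cell cannot be told apart.

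**Figure D1:**
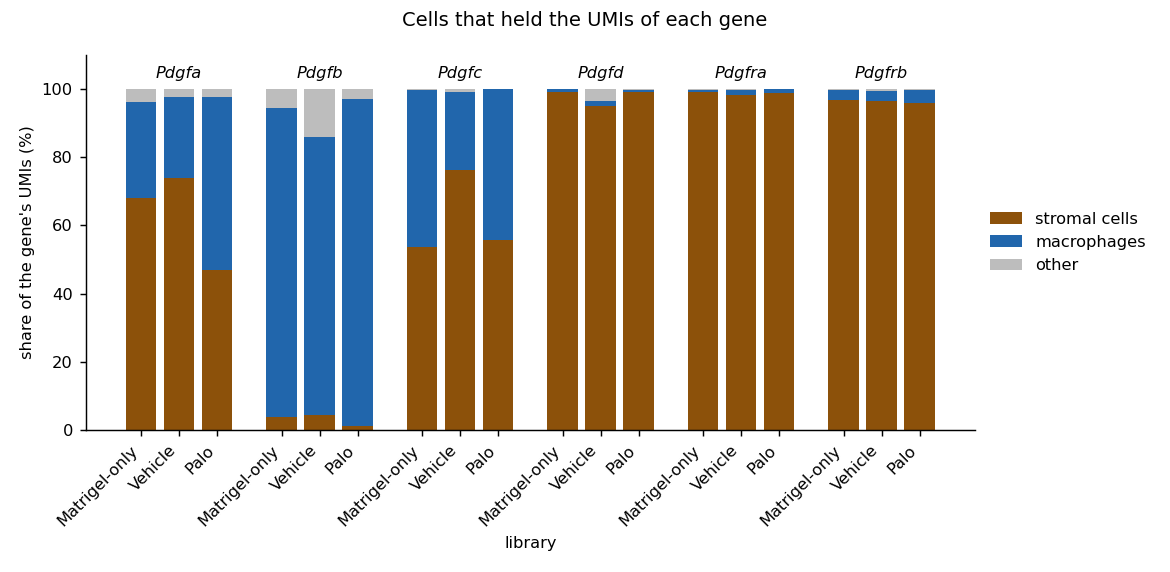
Share of each gene's UMIs (y axis, %) held by stromal cells, macrophages and other cells in the Matrigel-only, Vehicle and Palo libraries (x axis), with the bars grouped by gene. Pdgfra, Pdgfrb and Pdgfd bars are over 95% stromal in each library, Pdgfb bars are 81.4% to 95.6% macrophage, and Pdgfa and Pdgfc bars are divided.

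Within a library, the level in stromal cells was set against that in macrophages as the ratio of CPM, and a gene was counted when it was past 2-fold with at least 10 CPM in either class. In Matrigel-only, 5 of 6 members were past 2-fold, 4 higher in stromal cells and 1 lower, where 38.8% of 9718 genes were. In Vehicle it was 4 of the 5 members measured at that level, 3 higher and 1 lower, where 40.9% of 9677 genes were. In Palo it was 5 of 6 members, 4 higher and 1 lower, where 41.2% of 9549 genes were. The member that was lower in stromal cells was Pdgfb in each library, by 23.1-fold, 30.7-fold and 42.2-fold.

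**Figure D2:**
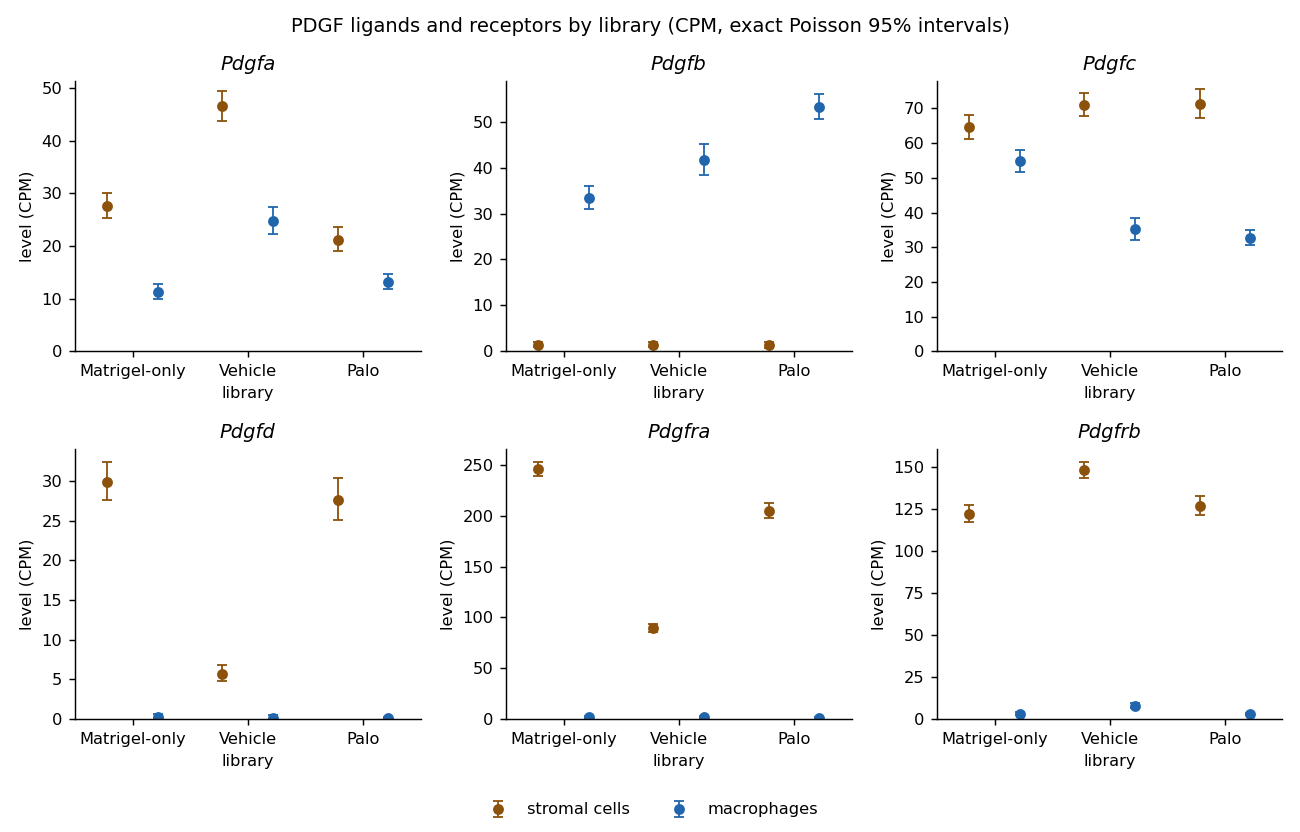
Level of each gene (y axis, CPM, linear and starting at 0) in stromal cells and macrophages of the 3 libraries (x axis), with points for the class sums and bars for 95% Poisson counting intervals. Stromal Pdgfra and Pdgfd dip in Vehicle (89.2 and 5.72 CPM) between higher Matrigel-only and Palo values, and stromal Pdgfa peaks there (46.5 CPM).

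Between libraries, the same rule of 2-fold and 10 CPM was applied in each class. In stromal cells, 2 of 5 members (Pdgfd and Pdgfra, both lower) were past 2-fold from Matrigel-only to Vehicle, where 15.2% of 9227 genes were. From Vehicle to Palo it was 3 of 5 members, Pdgfd and Pdgfra higher and Pdgfa lower, where 12.2% of 9040 genes were. Between Palo and Matrigel-only none of the 5 members was past 2-fold, where 2.71% of 8925 genes were. In macrophages, 1 of 3 members (Pdgfa, higher) was past 2-fold from Matrigel-only to Vehicle, where 6.61% of 8457 genes were. None of the 3 was past 2-fold from Vehicle to Palo (6.91% of 8321 genes) or between Palo and Matrigel-only (2.46% of 8225 genes). The Vehicle library enters both of the first comparisons in each class, so a value that is high or low in Vehicle moves both. The median log2 ratio over all genes was within 0.03 of 0 in the 3 stromal comparisons and in macrophages from Matrigel-only to Vehicle, but was -0.18 from Vehicle to Palo and -0.17 between Palo and Matrigel-only in macrophages.

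**Figure D3:**
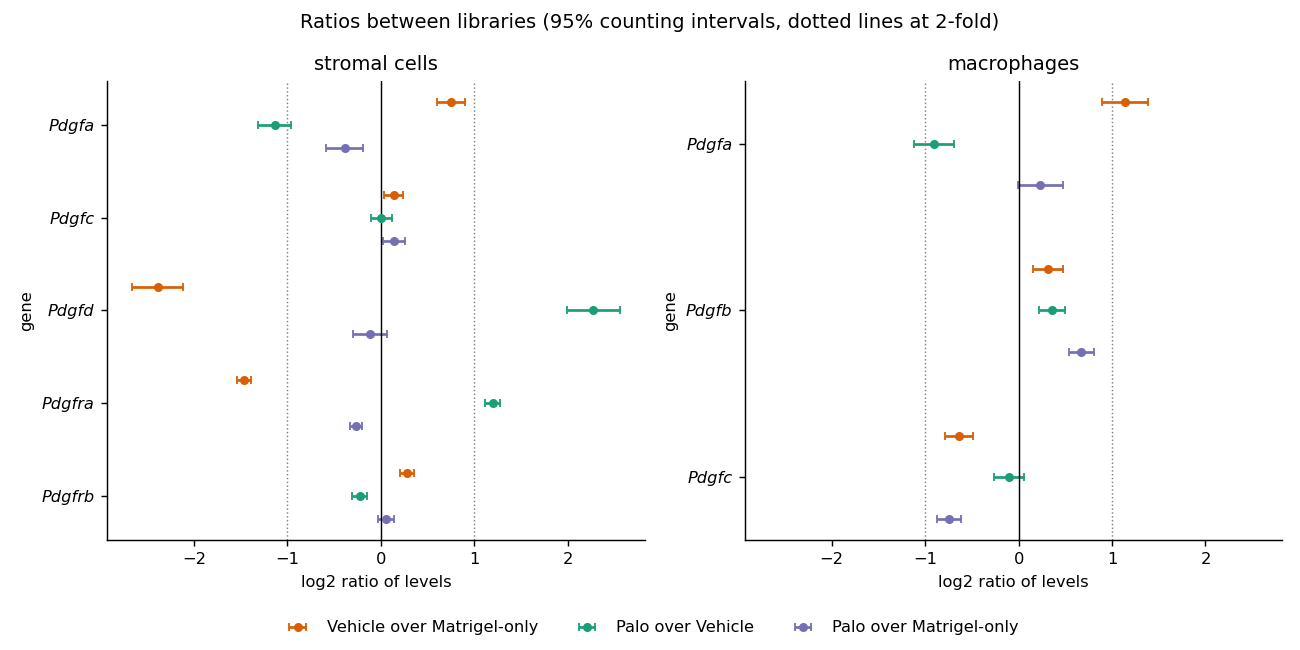
Log2 ratio of the level (x axis) of each member with at least 10 CPM in either library (y axis) for Vehicle over Matrigel-only, Palo over Vehicle and Palo over Matrigel-only, with stromal cells and macrophages in separate panels, bars for 95% counting intervals and dotted lines at 2-fold. In stromal cells Pdgfd and Pdgfra lie beyond the line on the lower side for Vehicle over Matrigel-only (-2.39 and -1.46) and on the higher side for Palo over Vehicle (2.27 and 1.20).

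Pdgfa encodes the A chain, a ligand of PDGFRα. Its stromal level was 27.6 CPM (25.4 to 30.0) in Matrigel-only, 46.5 CPM (43.8 to 49.3) in Vehicle and 21.2 CPM (19.0 to 23.5) in Palo. Vehicle was the highest of the 3 libraries, and no interval overlapped another. The Vehicle level was 1.68-fold that of Matrigel-only (log2 ratio 0.75, interval 0.60 to 0.90), and the Palo level was 2.20-fold below Vehicle (log2 ratio -1.14, interval -1.32 to -0.96). At 3100 UMIs a cell, Pdgfa was detected in 5.44%, 10.8% and 5.27% of stromal cells, against 14.0%, 35.2% and 18.9% unthinned.

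In macrophages Vehicle was also the highest library for Pdgfa, with levels of 11.2 CPM (9.84 to 12.8), 24.7 CPM (22.2 to 27.4) and 13.2 CPM (11.9 to 14.7) in Matrigel-only, Vehicle and Palo. Vehicle was 2.20-fold above Matrigel-only (log2 ratio 1.14, interval 0.89 to 1.38) and Palo 1.87-fold below Vehicle (log2 ratio -0.90, interval -1.12 to -0.69). Palo and Matrigel-only differed by a log2 ratio of 0.23, with an interval that reached 0 (-0.01 to 0.48). At 1400 UMIs the share of macrophages with a Pdgfa UMI was 1.55%, 3.44% and 1.98%. The higher Vehicle level was present in each of the macrophage subsets, at 27.8 CPM in cells of the Ms4a7 list, 27.3 in those of the Hal list and 17.3 in those of the Mmp12 list, against 13.9, 8.75 and 6.53 CPM in Matrigel-only. Pdgfa overlaps an antisense gene, 6330403L08Rik, and whether counting used strand is not given in the sources used here.

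Stromal cells were further divided by 2 marker pairs. Cells in which Acan and Col2a1, the genes of the cartilage proteins aggrecan and type II collagen, together made up at least 0.1% of UMIs were called the cartilage matrix subset, which held 0, 536 and 0 cells. Of the rest, cells in which Pi16 and Clec3b, genes of a fibroblast population found in many tissues, reached 0.1% were called the Pi16 subset, with 1063, 97 and 308 cells, and 1022, 740 and 876 cells remained. Pdgfa was low in the Pi16 subset of each library, at 5.15, 4.96 and 5.23 CPM. In the remaining cells it was 43.7, 63.1 and 25.0 CPM, and in the cartilage matrix subset 28.6 CPM. The Pi16 subset thus held 51.0%, 7.06% and 26.0% of stromal cells but 7.76%, 0.547% and 4.78% of stromal Pdgfa UMIs. Without the cartilage matrix subset the ratio of Vehicle to Matrigel-only passed 2-fold (log2 ratio 1.07).

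The remaining cells were then split by Sox9, the gene of a cartilage transcription factor, with limits set after the data had been seen. Cells with no Sox9 UMI had 45.5, 82.8 and 20.9 CPM of Pdgfa in Matrigel-only, Vehicle and Palo. Cells with Sox9 above 0 and under 300 CPM had 43.0, 71.9 and 31.3 CPM, and cells at 300 CPM or more had 34.4, 37.7 and 15.0 CPM. In the Vehicle library Pdgfa was therefore lowest where Sox9 was high, and the cells without a Sox9 UMI include shallow cells.

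**Figure D4:**
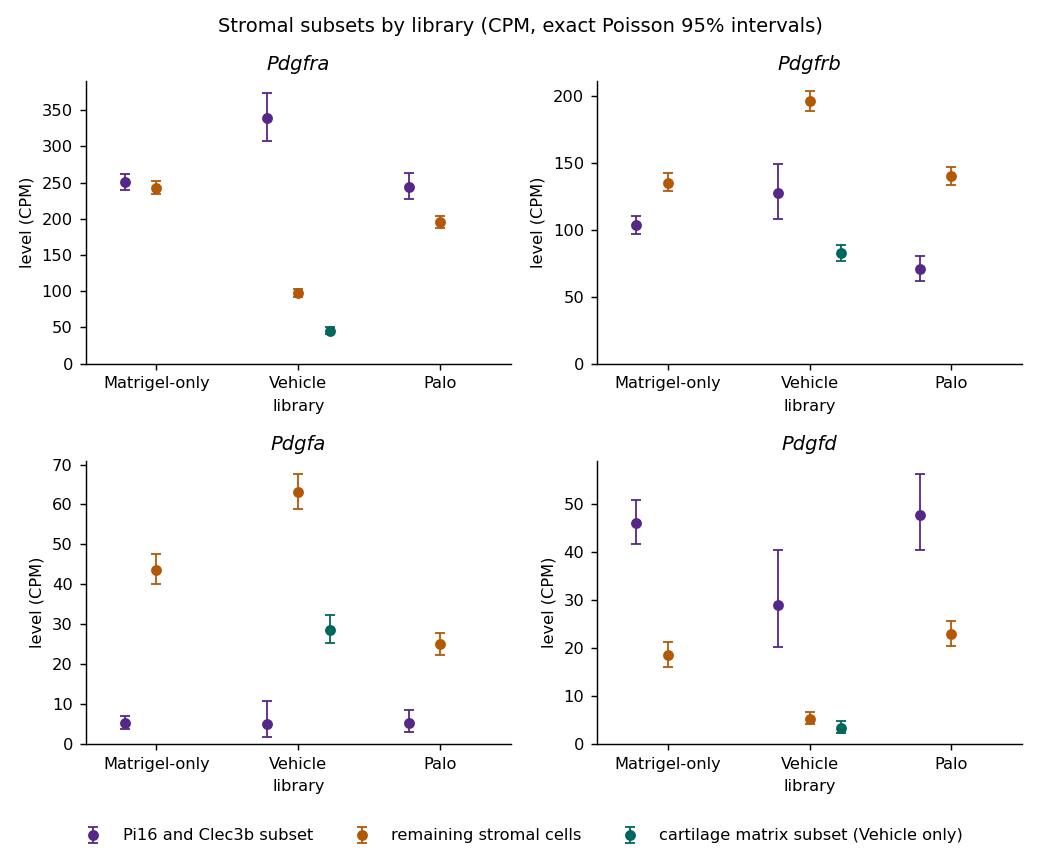
Level of Pdgfra, Pdgfrb, Pdgfa and Pdgfd (y axes, CPM) in the Pi16, remaining and cartilage matrix subsets of stromal cells by library (x axis), with 95% Poisson counting intervals. The cartilage matrix subset exists in Vehicle only, where its Pdgfra level is 45.7 CPM against 97.1 CPM in the remaining and 339 CPM in the Pi16 cells.

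Pdgfb encodes the B chain, the ligand that both receptors bind. In macrophages its level was 33.4 CPM (31.0 to 36.0) in Matrigel-only, 41.7 CPM (38.4 to 45.1) in Vehicle and 53.3 CPM (50.6 to 56.1) in Palo. The 3 intervals did not overlap, and Palo was the highest. The Palo level was 1.59-fold that of Matrigel-only (log2 ratio 0.67, interval 0.54 to 0.81), with log2 ratios of 0.32 for Vehicle over Matrigel-only and 0.36 for Palo over Vehicle, none of them past 2-fold. At 1400 UMIs, 4.59%, 6.20% and 7.42% of macrophages had a Pdgfb UMI. When every macrophage was weighted equally, the Palo over Vehicle log2 ratio was 0.16. With trimmed mean of M values scaling it was 0.56, the highest of the alternative settings. Pdgfb lies on the minus strand at chr15:79995874-80014977 and overlaps Gm41361 on the other strand.

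Pdgfb differed less between macrophage subsets than between classes. These subsets were formed by assigning each macrophage to whichever of 3 lists stood out in it: Ms4a7, Stab1, Ccl8 and Ccl12 (3162, 1812 and 2789 cells), Hal, Ltc4s, Retnla and Arg1 (1553, 752 and 1353 cells), or Mmp12, Ear2, Itgax and Dcstamp (939, 533 and 1309 cells). Pdgfb was 30.2, 33.3 and 48.5 CPM in the Ms4a7 list cells, 29.3, 59.4 and 53.6 CPM in the Hal list cells, and 43.1, 43.1 and 58.8 CPM in the Mmp12 list cells. Palo exceeded Matrigel-only in each of the 3 subsets, while Vehicle was near Matrigel-only in the Ms4a7 and Mmp12 list cells and near Palo in the Hal list cells. In stromal cells Pdgfb had 29, 32 and 20 UMIs in all, or 1.45, 1.36 and 1.26 CPM. That was 4.33%, 3.26% and 2.37% of the macrophage level, inside the 1.32% to 11.9% at which 10 macrophage markers appeared in stromal cells over the 3 libraries, so stromal expression of Pdgfb was not detectable above the level of free macrophage RNA or mixed cells.

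Pdgfc encodes the C chain, which also binds PDGFRα after its CUB domain is cut off. In stromal cells it was 64.6 CPM (61.2 to 68.3) in Matrigel-only, 71.1 CPM (67.7 to 74.6) in Vehicle and 71.4 CPM (67.3 to 75.7) in Palo. The Vehicle and Palo intervals overlapped almost entirely, with a log2 ratio of 0.01, and both were within a log2 ratio of 0.14 of Matrigel-only. Among stromal subsets the Vehicle library ran from 44.7 CPM in the Pi16 and 44.8 CPM in the cartilage matrix subset to 92.2 CPM in the remaining cells, where Matrigel-only and Palo had 68.0 and 73.6 CPM.

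In macrophages Pdgfc was highest without BMP2, at 54.8 CPM (51.6 to 58.1) in Matrigel-only, 35.2 CPM (32.2 to 38.4) in Vehicle and 32.6 CPM (30.6 to 34.9) in Palo. The level was 1.56-fold lower in Vehicle than in Matrigel-only (log2 ratio -0.64, interval -0.79 to -0.49) and 1.68-fold lower in Palo. Vehicle and Palo overlapped (log2 ratio -0.11, interval -0.27 to 0.05), and this sign turned with trimmed mean of M values (TMM) scaling, at 0.09. At 1400 UMIs the share of macrophages with a UMI was 7.09%, 4.81% and 4.60%. The stromal level was 1.18-fold the macrophage level in Matrigel-only, 2.02-fold in Vehicle and 2.19-fold in Palo. Over the alternative settings this log2 ratio ran from 0.76 to 1.33 in Vehicle and from 0.93 to 1.14 in Palo.

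Pdgfc varied among macrophages by subset. It was 82.8, 56.6 and 57.9 CPM in the Ms4a7 list cells, 40.5, 20.9 and 25.0 CPM in the Hal list cells, and 5.36, 5.01 and 4.62 CPM in the Mmp12 list cells. The Ms4a7 list cells were thus 15.4-fold, 11.3-fold and 12.5-fold above the Mmp12 list cells of the same library. They held 80.0%, 84.8% and 78.0% of macrophage Pdgfc UMIs with 54.4%, 55.7% and 49.3% of the cells. The step from Matrigel-only to Vehicle was seen in the Ms4a7 and Hal list cells, and the Mmp12 list cells stayed near 5 CPM throughout. Pdgfc lies on the plus strand at chr3:81036416-81214040 and overlaps the antisense gene Gm16000.

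**Figure D5:**
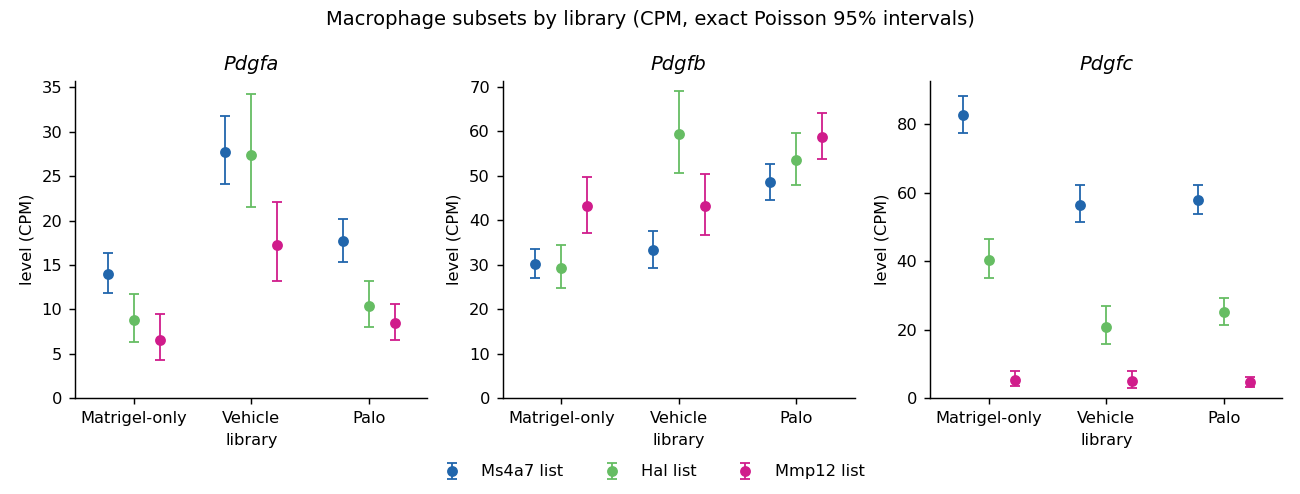
Level of Pdgfa, Pdgfb and Pdgfc (y axes, CPM) in macrophages of the Ms4a7, Hal and Mmp12 lists by library (x axis), with 95% Poisson counting intervals. Pdgfc separates the subsets in each library (82.8, 40.5 and 5.36 CPM in Matrigel-only), and Pdgfa is higher in Vehicle in all 3 subsets.

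Pdgfd encodes the D chain, a ligand of PDGFRβ. Its stromal level was 29.9 CPM (27.6 to 32.4) in Matrigel-only, 5.72 CPM (4.80 to 6.77) in Vehicle and 27.7 CPM (25.1 to 30.4) in Palo. Vehicle lay far below the other libraries, whose intervals overlapped. The level was 5.23-fold lower in Vehicle than in Matrigel-only (log2 ratio -2.39, interval -2.67 to -2.12) and 4.83-fold higher in Palo than in Vehicle (log2 ratio 2.27, interval 1.99 to 2.56), with -0.11 (-0.29 to 0.07) between Palo and Matrigel-only. The share of stromal cells with a UMI at 3100 UMIs was 9.73%, 1.81% and 8.69%.

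Pdgfd was also unequal between stromal subsets. The Pi16 subset had 46.0, 29.0 and 47.7 CPM. The remaining cells had 18.5, 5.28 and 22.9 CPM, so the lower Vehicle value was present outside the Pi16 and cartilage matrix cells as well. The cartilage matrix cells had 3.33 CPM. Macrophages had 6, 2 and 3 Pdgfd UMIs in all, and the stromal level was 102-fold (46.4 to 278), 41.1-fold (11.2 to 343) and 253-fold (86.0 to 1232) the macrophage level. Ddi1 overlaps Pdgfd on the opposite strand.

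Pdgfra encodes PDGFRα, the receptor of the A and C chains and a marker of fibroblasts and mesenchymal progenitors. Its stromal level was 246 CPM (239 to 253) in Matrigel-only, 89.2 CPM (85.5 to 93.1) in Vehicle and 205 CPM (198 to 212) in Palo. None of the 3 intervals overlapped, and Vehicle was the lowest. The level was 2.76-fold lower in Vehicle than in Matrigel-only (log2 ratio -1.46, interval -1.54 to -1.39) and 2.30-fold higher in Palo than in Vehicle (log2 ratio 1.20, interval 1.12 to 1.28). Palo remained below Matrigel-only, with a log2 ratio of -0.26 (-0.33 to -0.20). At 3100 UMIs, 50.5%, 22.2% and 45.2% of stromal cells had a Pdgfra UMI, against 78.1%, 59.4% and 82.3% unthinned. The thinned share was 28.3 percentage points smaller in Vehicle than in Matrigel-only, a difference of -28.3 (-31.4 to -25.0), and 23.1 points larger in Palo than in Vehicle (19.4 to 26.7).

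The low Pdgfra level of the Vehicle library was not shared by all stromal cells. In the Pi16 subset Pdgfra was 251 CPM in Matrigel-only, 339 CPM in Vehicle and 244 CPM in Palo, so there Vehicle was the highest. In the remaining cells it was 243, 97.1 and 196 CPM, 2.50-fold lower in Vehicle than in Matrigel-only and 2.01-fold higher in Palo than in Vehicle. In the cartilage matrix cells, present in Vehicle only, it was 45.7 CPM. With those cells left out of the stromal class, the ratio of Palo to Vehicle was no longer past 2-fold (log2 ratio 0.80) and that of Vehicle to Matrigel-only was -1.07.

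The remaining cells were also split, after the data had been seen, by the summed level of the contractile genes Acta2 and Tagln. Pdgfra was 261, 127 and 207 CPM in cells under 1000 CPM and 151, 68.1 and 154 CPM in cells from 1000 to 5000 CPM. Vehicle was thus the lowest library in both ranges. Cells at 5000 CPM or more numbered 9, 61 and 18 and had 37.8, 54.3 and 180 CPM. In macrophages Pdgfra had 42, 29 and 35 UMIs (2.06, 2.02 and 1.28 CPM), and at 1400 UMIs 0.271%, 0.287% and 0.156% of macrophages had one, against 29.0%, 11.9% and 25.5% of stromal cells at the same depth. The macrophage level was 0.838%, 2.26% and 0.622% of the stromal level, where the highest of 10 stromal markers was at 2.62%, 1.92% and 1.14%. Pdgfra was thus within the marker range in Matrigel-only and Palo and above it by the point value in Vehicle. On 29 UMIs, the Vehicle fraction of 0.0226 had an interval of 0.0151 to 0.0326, which covered the highest marker. Whether these macrophage UMIs are free RNA, mixed cells or expression was not tested. Gm42802 and Gm42803 overlap Pdgfra on the opposite strand.

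Pdgfrb encodes PDGFRβ, the receptor of the B and D chains, known from pericytes and smooth muscle as well as fibroblasts. Its stromal level was 122 CPM (117 to 127) in Matrigel-only, 148 CPM (143 to 153) in Vehicle and 127 CPM (121 to 132) in Palo. Vehicle was the highest, and Matrigel-only and Palo overlapped. The log2 ratios were 0.28, -0.22 and 0.05 for Vehicle over Matrigel-only, Palo over Vehicle and Palo over Matrigel-only, none past 2-fold. At 3100 UMIs the share of stromal cells with a UMI was 29.5%, 33.7% and 30.1%. Pdgfrb lies on the plus strand of chromosome 18 and no other annotated gene overlaps it.

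Pdgfrb was higher in the remaining cells than in the Pi16 subset of each library. It was 103, 127 and 70.6 CPM in the Pi16 subset and 135, 196 and 140 CPM in the remaining cells, with 82.8 CPM in the cartilage matrix cells. Vehicle was the highest library in both subsets. By Acta2 and Tagln, the remaining cells under 1000 CPM had 129, 171 and 127 CPM of Pdgfrb, those from 1000 to 5000 CPM had 174, 222 and 181 CPM, and those at 5000 CPM or more had 144, 227 and 217 CPM. Cells with UMIs of at least 3 of 7 mural genes numbered 6, 23 and 7, all of them stromal. They held 16, 67 and 45 Pdgfra UMIs and 9, 90 and 29 Pdgfrb UMIs, and whether they are mural cells was not tested. In Vehicle they held 2.58% of stromal Pdgfrb UMIs and 3.18% of stromal Pdgfra UMIs. The count was not thinned, and stromal cells were deepest in Vehicle (median 17114 UMIs against 9082 and 12955). Cspg4, which is in the mural list, was also highest in Vehicle stromal cells.

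In macrophages Pdgfrb had 68, 114 and 80 UMIs, or 3.34, 7.94 and 2.92 CPM. At 1400 UMIs, 0.487%, 1.30% and 0.444% of macrophages had a UMI, against 15.7%, 18.3% and 16.4% of stromal cells. The macrophage level was 2.74%, 5.36% and 2.30% of the stromal level, where the highest of 10 stromal markers was at 2.62%, 1.92% and 1.14%. As a fraction, the Matrigel-only interval of 0.0212 to 0.0348 covered the highest marker. The Vehicle and Palo intervals, 0.0441 to 0.0647 and 0.0182 to 0.0288, lay above it. The mural list was also highest in Vehicle macrophages. Of its 7 genes, 7, 7 and 6 had UMIs in macrophages of Matrigel-only, Vehicle and Palo. They summed to 15.3 CPM in Vehicle against 2.11 CPM in both other libraries, with no macrophage meeting the mural count of 3 genes. Cspg4, one of the 7, made up 10.0 CPM of the Vehicle sum. The part of mural cells in the macrophage Pdgfrb UMIs was not tested.

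The 2 receptors were also read together. Of all stromal receptor UMIs, Pdgfra made up 66.9%, 37.6% and 61.8% in the Matrigel-only, Vehicle and Palo libraries. In the remaining cells it made up 64.2%, 33.1% and 58.2%, in the Pi16 subset 70.8%, 72.7% and 77.6%, and in the cartilage matrix cells 35.6%. These shares compare libraries and not the abundance of the 2 transcripts, which can be captured unequally. At 3100 UMIs, cells with both receptors made up 16.5%, 8.55% and 14.5% of stromal cells. Cells with Pdgfra alone made up 34.0%, 13.6% and 30.8%, cells with Pdgfrb alone 13.0%, 25.1% and 15.6%, and cells with neither 36.5%, 52.7% and 39.1%. Vehicle thus had fewer cells with Pdgfra, alone or with Pdgfrb, and more with Pdgfrb alone than either other library at the same depth. Unthinned, 44.9%, 48.1% and 53.1% of stromal cells had both receptors and 12.9%, 15.8% and 8.95% had neither. A cell with neither at 3100 UMIs is therefore not shown to lack the receptors.

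Genes that act around the ligands and receptors were read as lists, in stromal cells first. The counts of each stromal list below stand against the shares over all genes. From Matrigel-only to Vehicle 5.09% of all genes were past 2-fold higher and 10.1% lower. From Vehicle to Palo 7.08% were higher and 5.17% lower. Between Palo and Matrigel-only 0.672% were higher and 2.04% lower. The maturation and binding list holds proteases that cut PDGF chains and matrix proteins that bind them. From Matrigel-only to Vehicle, 1 of its 9 measured genes was past 2-fold higher and 3 lower, with a median log2 ratio of -0.12, and from Vehicle to Palo 2 of 8 were higher and none lower. Pcsk6, a proprotein convertase, was 61.4, 8.82 and 43.9 CPM in Matrigel-only, Vehicle and Palo. Plat, the tissue plasminogen activator that cuts the C chain, was 306, 96.0 and 253 CPM. Both were lowest in Vehicle. Plau, the urokinase that cuts the D chain, was 27.1, 7.12 and 8.53 CPM, low in both libraries with BMP2. Thbs1, a matrix protein that binds growth factors, was 220, 522 and 446 CPM. Between Palo and Matrigel-only 2 of 9 genes of this list were past 2-fold, Thbs1 higher and Plau lower in Palo.

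Of the 8 co-receptor and receptor partner genes, 3 were past 2-fold higher and 3 lower from Matrigel-only to Vehicle, and 2 higher and 3 lower from Vehicle to Palo. Cspg4, the proteoglycan NG2 that binds the A chain, was 11.3, 79.6 and 15.3 CPM, and Nrp2, a neuropilin, was 32.7, 172 and 60.0 CPM. S1pr1, a sphingosine phosphate receptor, was 5.14, 26.4 and 5.31 CPM. These were highest in Vehicle, whereas Itgb3, an integrin chain that associates with PDGFRβ, was 93.6, 17.8 and 90.7 CPM, and the hyaluronan receptor gene Cd44 was 492, 178 and 720 CPM. None of 20 measured genes of the signalling list, the adaptors and kinases that act after the receptors, was past 2-fold in any of the 3 stromal comparisons. Between Palo and Matrigel-only none of 7 co-receptor genes was past 2-fold, where 2.71% of 8925 genes were.

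Most early response genes, and fewer of the feedback genes, were past 2-fold lower in Vehicle stromal cells. Of 13 measured attenuators of receptor signalling, 4 were past 2-fold lower and none higher from Matrigel-only to Vehicle (median log2 ratio -0.57), and 5 were higher and none lower from Vehicle to Palo (median 0.39). Spry2, an inhibitor of receptor tyrosine kinase signalling, was 41.2, 7.76 and 29.9 CPM. Lrig1, a membrane protein that restrains receptor kinases, was 16.9, 3.26 and 21.5 CPM, and Dusp6, an ERK phosphatase, was 23.2, 9.58 and 27.7 CPM. Other attenuators, named after their values were seen, were highest in Vehicle without passing 2-fold. Acp1 was 23.8, 47.4 and 38.7 CPM, Ptpn1 53.9, 85.5 and 67.4 CPM, Ptpn2 31.4, 47.0 and 26.8 CPM, and Socs3 96.6, 114 and 92.9 CPM. Of 15 early response genes, which growth factors and many other signals switch on, 10 were past 2-fold lower and 1 higher from Matrigel-only to Vehicle (median -1.21), and 10 higher and 1 lower from Vehicle to Palo (median 1.64). Egr1 was 140, 28.2 and 138 CPM, Fosb 70.0, 16.8 and 76.2 CPM, and Dusp1 207, 41.0 and 171 CPM. The gene past 2-fold higher in Vehicle than in Matrigel-only, named after its values were seen, was Ier3, at 210.4, 428.9 and 258.9 CPM. The gene past 2-fold lower in Palo than in Vehicle, named in the same way, was Fosl1, at 19.8, 38.4 and 12.2 CPM. None of the 13 attenuators and 15 early response genes was past 2-fold between Palo and Matrigel-only. Over all genes 2.71% of 8925 were, so this count is near the share over all genes. Over all genes, 10.1% were past 2-fold lower from Matrigel-only to Vehicle and 7.08% higher from Vehicle to Palo, with medians of -0.03 and 0.01. The part of PDGF signalling, or of any other signal, in these early response and attenuator levels was not tested.

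Relatives of the PDGF family, the VEGF ligands and related receptors, had 10 of 11 listed genes in the files and 6 measured in stromal cells. From Matrigel-only to Vehicle 2 of the 6 were past 2-fold lower and none higher, and from Vehicle to Palo 1 was higher and 2 lower. Between Palo and Matrigel-only 2 of 6 were past 2-fold, Pgf and Vegfa, both lower in Palo. Pgf was 25.4, 33.0 and 5.75 CPM in Matrigel-only, Vehicle and Palo. Vegfa, a ligand for endothelial growth, was 151, 292 and 72.8 CPM, and Kdr, one of its receptors, was 17.8, 2.54 and 11.6 CPM. Csf1r, a macrophage gene, was 39.5 CPM in Matrigel-only and 17.2 CPM in Vehicle stromal cells and is also a gene of the class rule.

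In macrophages none of 10 measured attenuators was past 2-fold in any comparison. Over all genes, 6.61% were past 2-fold from Matrigel-only to Vehicle (4.19% higher and 2.42% lower). From Vehicle to Palo 6.91% were (1.75% higher and 5.16% lower). Of 13 early response genes 3 were lower from Matrigel-only to Vehicle (median log2 ratio -0.35) and 2 higher from Vehicle to Palo (median 0.62). These medians had the same signs as in stromal cells. Of 19 signalling genes 1 was higher in the first comparison and 2 lower in the second, near the shares over all genes. Src, a kinase that binds activated receptors, was 2.11, 15.6 and 1.35 CPM. Of 5 measured relatives, 3 were higher in Vehicle than in Matrigel-only and 3 lower in Palo than in Vehicle. Flt1, a VEGF receptor gene, was 0.688, 47.0 and 1.09 CPM and Vegfa 21.5, 56.8 and 8.16 CPM. Of 8 co-receptor genes, 3 were higher and none lower in the first comparison and 3 lower and none higher in the second. Cspg4 was 0.344, 10.0 and 0.947 CPM and Itgb3 1.67, 10.3 and 2.73 CPM. The 8 endothelial markers also differed, summing to 11.0, 56.4 and 7.62 CPM in macrophages, and 1 Vehicle macrophage had UMIs of 3 or more. In macrophages T and NK genes summed to 3.58, 42.5 and 3.79 CPM and granulocyte genes to 38.4, 107 and 33.5 CPM. Basophil genes summed to 0.884, 30.7 and 1.89 CPM and dendritic genes to 5.21, 14.6 and 5.03 CPM. B cell genes were not higher in Vehicle, at 19.8, 19.0 and 21.9 CPM. The part of such cells or their RNA in these values, and in the macrophage Pdgfa level, was not tested.

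For each member, the genes of nearest pattern were taken over 9 levels, those of stromal cells, macrophages and other cells in the 3 libraries. Likeness was the root mean square difference of log2(CPM + 1) after centring each gene, among 10968 genes. Nearest to Pdgfra were Adgrd1 (0.294), Gpc6 (0.307) and Adamtsl1 (0.330), and nearest to Pdgfrb were Gli3 (0.290), Creb3l1 (0.291) and Arhgap42 (0.319). Near to Pdgfd were Ebf3 (0.235) and Ret (0.336). Pdgfa was nearest to Mif (0.219), Il13ra1 (0.240) and Pgam1 (0.240), a glycolytic enzyme gene. Pdgfb was nearest to Batf (0.237), Clec4e (0.251) and Epsti1 (0.288), genes known from myeloid cells. Pdgfc was nearest to Colec12 (0.291), Igfbp4 (0.454) and Clmp (0.459), a wider gap than for the third gene of any other member. The 9 levels share libraries and depth, and likeness is a description of these libraries.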

How the data were processed

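The data were 3 deposited gene by cell matrices of UMI counts from Chromium libraries, 1 each for the Matrigel-only, Vehicle and Palo groups. Dissociation was with dispase. Per the submitters' processing notes, the authors used Cell Ranger 3.0.2, Seurat 3 and the mm10 genome to make them. The counts were raw and not normalized. Library totals were 44252421, 46317250 and 46901673 UMIs.

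Cells were kept with 200 to 6000 genes and at most 5% mitochondrial UMIs, as in the study. UMIs were summed per class and library and given as CPM of the class total, with exact Poisson intervals. Ratios have conditional binomial intervals, shares of cells and of UMIs exact Clopper-Pearson intervals, and differences of shares Newcombe intervals. Groups hold 1 library each, so no test between groups was run, and a gene was counted as different when past 2-fold with at least 10 CPM in either library. The 6 members were always named, with at most 4 genes per pathway list and comparison (largest log2 ratios past 2-fold) and the 3 nearest patterns per member. Some genes that this rule names are not reported here. The members and lists were chosen with earlier results of these data known, and the splits by Sox9 and by Acta2 with Tagln, and the lists for other cells, were set after the data were seen. Macrophage subsets are cuts of a continuous score, and 4.32%, 5.66% and 4.77% of macrophages lay within 1.25-fold of a cut. Doublets were kept, since the threshold of Scrublet called 1, 3 and 0 cells, and the 609, 240 and 426 cells of highest score were left out as an alternative. The scripts were tested on simulated data. The 13 alternatives covered scaling, filters, class limits, mixed cells, doublets and depth. Gene positions are those of the GENCODE annotation of mm10, and promoters are RefSeq sequences of GRCm38.p6. Python 3.11.15, numpy 2.4.6, scipy 1.17.1, pandas 2.3.3, matplotlib 3.10.9, scanpy 1.11.5, R 4.3.3 and edgeR 4.0.16 (for TMM factors) were used.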

Additional observations from a re-analysis of the deposited data

Results flagged for a closer look

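Pdgfc, the gene of the C chain, differed between libraries in opposite directions in the 2 cell classes. From Matrigel-only to Vehicle its log2 ratio was 0.14 in stromal cells and -0.64 in macrophages, a difference of 0.78 between the classes. From Matrigel-only to Palo it was 0.14 and -0.75, a difference of 0.89. With 1 library a group, neither difference was tested. The stromal ratios were small, and the stromal subsets did not move together from Matrigel-only to Vehicle. Pdgfc was lower in the Pi16 subset (log2 ratio -0.42, interval -0.86 to -0.02) and higher in the remaining cells.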

How the results depend on the processing

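The 9 counts of members past 2-fold were recomputed under each alternative, which gave 81 further counts, of which 74 were within 1.5 times the main count. The other 7 were in macrophages. From Matrigel-only to Vehicle the count was 1 and became 2 without the 50 highest genes in the denominator, where Pdgfrb passed 10 CPM, and 3 without the filter on low counts, which added Pdgfrb and Pdgfd. From Vehicle to Palo it was 0 and became 1 in each of 4 settings, through Pdgfrb for the same denominator and with no filter, and through Pdgfa with all deposited barcodes (log2 ratio -1.06) and with a mitochondrial limit of 10% (-1.05). Between Palo and Matrigel-only it was 0 and became 1 with no filter, through Pdgfd. Members also changed where a count stayed within 1.5 times. For stromal cells over macrophages in Vehicle, Pdgfc fell under 2-fold with equally weighted cells, a mitochondrial limit of 10% or stromal cells without an immune UMI. With equally weighted cells Pdgfc also did so in Palo and Pdgfa in Matrigel-only. In Vehicle Pdgfa passed 2-fold with a stromal limit of 3% or without the cartilage matrix cells, and Pdgfd with no filter. Of 333 further log2 ratios 45 moved by more than their counting interval and 0 of those called changed sign. Without the cartilage matrix cells the stromal Pdgfrb ratio of Vehicle to Matrigel-only was 0.64 and the Pdgfa ratio of Palo to Vehicle -1.46. With a stromal limit of 3% the Pdgfa ratio of Vehicle to Matrigel-only was 1.05. That limit kept 1971 of 2085 stromal cells in Matrigel-only, 1092 of 1373 in Vehicle and 1149 of 1184 in Palo, the largest loss being in Vehicle. TMM factors moved all macrophage ratios by 0.20 from Vehicle to Palo and by 0.18 between Palo and Matrigel-only. Of 90 further shares of cells 84 moved, under no thinning, a common depth of 1400 UMIs or a minimum of 2 UMIs, all of which change the share by construction. In stromal cells of Palo without an immune UMI no Pdgfb UMI was left, so that setting gave no ratio to macrophages. No paired analysis was possible because each group is 1 library. Depth limits what can be said of Pdgfb in stromal cells and of Pdgfd, Pdgfra and Pdgfrb in macrophages.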

Other observations

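Cells outside both classes numbered 831, 852 and 452 in Matrigel-only, Vehicle and Palo, at median depths of 1713, 1764 and 2299 UMIs. The 10 macrophage markers summed to 12654, 7420 and 12529 CPM in them, and 674, 424 and 323 fell under none of the lists for other cells. Pdgfb was 21.8, 47.0 and 34.1 CPM there, on 42, 105 and 48 UMIs, and Pdgfa was 16.1, 16.1 and 12.1 CPM, on 31, 36 and 17 UMIs. The part of macrophages without a Csf1r or C1qa UMI in these levels was not tested. In Vehicle, 3 cells with UMIs of at least 3 of 8 endothelial markers held 42 of the 105 Pdgfb UMIs of these cells and all 5 of their Pdgfd UMIs. Without those 3 cells, a setting chosen after seeing the data, the Vehicle level was 29.1 CPM (22.4 to 37.3), and no such cell was found in this class of the other libraries. Cells of the T and NK list had 4, 17 and 2 Pdgfb UMIs, among 78595, 564392 and 103311 UMIs of all genes in 45, 219 and 37 cells. Cells of the granulocyte and basophil lists had 0 UMIs of any ligand. The granulocyte list held 1, 75 and 13 cells, with 563, 55495 and 13915 UMIs of all genes. The basophil list held 1, 90 and 1 cells, with 773, 139335 and 1878 UMIs. Such totals are too small to tell an absent ligand from a low one. Cells of the dendritic list had 26.4, 25.3 and 12.7 CPM of Pdgfa, from only 109, 43 and 58 cells with 454022, 237609 and 314090 UMIs of all genes. No cell in any library had UMIs of 3 or more platelet genes. The lists for these cells need UMIs of 2 or more genes, a limit set after the data had been seen.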
